A study of Mus musculus with 816 samples.

Results

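Cxcl1, Cxcl2, Cxcl3 and Cxcl5, the mouse CXC chemokines that attract neutrophils, were followed by their gene symbols through every condition of a microglial stimulus panel and through CD11b-selected brain cells of mice. They were 4 of the 45581 genes of the culture table and 4 of the 29858 genes of the mouse table. The cultures were 784 wells of primary neonatal mouse microglia, bought as 3 lots of cells named March15, Feb15 and May16, plated in multi-well plates and stimulated 4 days later. They covered 98 combinations of stimulus and time at 4, 24 or 72 h, with untreated wells (None) at 24 h (n = 40) and at 72 h (n = 25) and none at 4 h. The stimuli described most closely were lipopolysaccharide at 0.0001 ug/ul (LPS_hi) and 0.00001 ug/ul (LPS_lo), the Toll-like receptor ligand P3C at 0.001 ug/ul, tumour necrosis factor (TNFa) at 0.000004 ug/ul and prostaglandin E2 (PGE2) at 0.001 ug/ul. The mice were C57BL/6: 4 females aged 2 months that received LPS at 2 mg/kg intraperitoneally and 4 that received PBS, both taken at 4 h, and naive males aged 22 months (n = 13) or 2 months (n = 11). Wells of one group came from at most 3 commercial cell lots, so p-values over wells measured the spread between wells and lots rather than between litters, and neonatal microglia in culture are only a model of microglia in the adult brain.

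These chemokines are small secreted proteins that bind the receptor Cxcr2 on neutrophils and direct them out of the blood into inflamed tissue. Cxcl1 and Cxcl2 are made quickly by macrophages and microglia when Toll-like receptors or the receptors for interleukin 1 and TNF signal through NF-kB, and Cxcl3 is a close relative of Cxcl2. Cxcl5 is better known from epithelial cells, platelets and resident macrophages, and in many tissues it appears later in inflammation than the others.

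The 4 genes lie on the plus strand of chromosome 5 in one cluster of 146579 bases (GRCm38, GENCODE M21). Cxcl5 (ENSMUSG00000029371.7) spans chr5:90759360-90761624, Cxcl3 (ENSMUSG00000029379.10) chr5:90786103-90789600, Cxcl1 (ENSMUSG00000029380.11) chr5:90891241-90893115 and Cxcl2 (ENSMUSG00000058427.10) chr5:90903871-90905938. The platelet chemokine genes Ppbp and Pf4 lie between Cxcl5 and Cxcl3, and Cxcl15 lies between Cxcl3 and Cxcl1. Cxcl2 and Cxcl3 transcripts shared 161 of their 31-base words, which were 7.59% of the 2121 words of Cxcl2, while Cxcl1 shared none of its 1932 words with any other gene and Cxcl5 shared 16 of 1838. The values of Cxcl2 and Cxcl3 can therefore carry a part of each other's reads, and the size of that part was not tested.

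The promoters of Cxcl3, Cxcl1 and Cxcl2 are shown because these 3 genes followed each other most closely over the conditions. They come from RefSeq (GRCm38.p6, plus strand, chr5:90785851-90786100, chr5:90890995-90891240 and chr5:90903649-90903870) and end just before the gene start given by GENCODE. The capitals mark the words of at least 8 bases that all 3 promoters share on this strand.
Cxcl3: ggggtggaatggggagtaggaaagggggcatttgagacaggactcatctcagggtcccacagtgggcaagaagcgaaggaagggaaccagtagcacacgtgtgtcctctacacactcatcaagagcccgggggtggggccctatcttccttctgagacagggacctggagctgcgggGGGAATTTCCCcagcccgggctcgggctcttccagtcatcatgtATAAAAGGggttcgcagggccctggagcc
Cxcl1: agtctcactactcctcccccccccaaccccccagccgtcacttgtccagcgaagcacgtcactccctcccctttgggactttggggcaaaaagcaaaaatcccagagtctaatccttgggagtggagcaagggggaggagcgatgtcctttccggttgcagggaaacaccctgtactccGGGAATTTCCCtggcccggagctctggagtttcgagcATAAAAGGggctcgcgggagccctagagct
Cxcl2: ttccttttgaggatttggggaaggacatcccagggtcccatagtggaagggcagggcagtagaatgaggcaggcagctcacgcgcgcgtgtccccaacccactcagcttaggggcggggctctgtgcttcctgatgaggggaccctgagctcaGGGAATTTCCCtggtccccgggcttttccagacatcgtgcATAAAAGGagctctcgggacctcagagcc
The longest word common to the 3 promoters was GGGAATTTCCC, letters of the kind that NF-kB binds, which began 73, 71 and 97 bases before the RefSeq start in Cxcl3, Cxcl1 and Cxcl2. It occurred on either strand in 14 of 32851 RefSeq promoters of 250 bases (0.0426%). The other shared word was the TATA-like ATAAAAGG at 29, 34 and 57 bases, which occurred on either strand in 507 promoters (1.54%). The words were picked because these promoters share them, and a match is a description of letters and not a measured binding site.

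Values were counts-per-million of mapped reads (CPM) from 3′-end libraries, which are not corrected for length, so the genes were compared between conditions and not with each other. The estimated depth ran from 1.00 to 38.2 M reads per culture (median 4.67 M) and from 2.36 to 7.78 M reads per mouse (median 4.08 M, M for mega). Microglial markers were present in the cultures, with a median of 2585 CPM for Csf1r, while Tmem119 and P2ry12, which mark microglia in the brain, were low at 6.94 and 2.13 CPM. Many wells listed a member at 0: Cxcl1 in 203, Cxcl2 in 38, Cxcl3 in 281 and Cxcl5 in 619 of the 784 cultures. Of the 38 wells without Cxcl2, 31 came from 3 of the 21 library pools. Some libraries also listed genes at 0 that nearly every culture expressed, with more than 5 of 2584 such genes missing in 96 cultures, 78 of them at 72 h, so a 0 was read as "listed at 0" and results were repeated without these 96 cultures. All 303 cultures at 72 h came from the May16 lot, and 345 of the 418 cultures at 24 h came from the other lots, so times were compared within that lot where its 73 cultures at 24 h allowed it. In these bulk samples, fewer cells of a type and less RNA per cell cannot be told apart.

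LPS at the higher dose raised all 4 chemokines at 24 h, and each spanned a wide range across wells. Untreated wells at 24 h held Cxcl1 between 0 and 78.3 CPM with a median of 4.58, and LPS_hi wells (n = 18) between 3.45 and 732 CPM with a median of 83.3. Cxcl2 lay between 0 and 112 CPM (median 22.4) without stimulus and between 24.3 and 5332 CPM (median 499.9) with LPS_hi. Cxcl3 rose from a range of 0 to 11.5 CPM (median 0.422) to one of 1.52 to 385 CPM (median 58.7). For Cxcl2 and Cxcl3 the LPS_hi wells inside the untreated range were the 4 wells of the May16 lot, and for Cxcl1 they were these 4, 3 wells on 1 March15 plate at 34.7 to 44.99 CPM and none of the others. Cxcl5 was listed at 0 in 31 of the 40 untreated wells, and with LPS_hi it ranged from 0 to 42.6 CPM with a median of 2.77 and 5 wells at 0. On the log2(CPM + 1) scale the rises were 3.30 for Cxcl1 (SE 0.47), 4.21 for Cxcl2 (SE 0.44), 4.33 for Cxcl3 (SE 0.35) and 1.96 for Cxcl5 (SE 0.24), with adjusted p of 1.02e-10, 1.98e-18, 1.86e-28 and 2.16e-14 by limma. A gene was called when the adjusted p was under 0.05 and the log2 fold change was at least 1, and 6.17% of the 14433 genes tested were called higher in this comparison. The median change over all genes tested was -0.21, and it was -0.09 after the wells were rescaled to a common upper quartile, where the rises were 3.47, 4.40, 4.48 and 2.03. With a pseudocount of 5 the rise of Cxcl5 was 0.95 at 24 h and 0.42 at 4 h, under the fold required for a call. Untreated wells at 24 h held Cxcl5 at 4.59 CPM at most, below the filter on low values (5 CPM in at least 4 samples). Cxcl5 thus passed the filter at 4 and 24 h only through stimulated wells, and it could only be called higher. Its p-values against untreated wells add nothing to the values themselves.

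**Figure D1:**
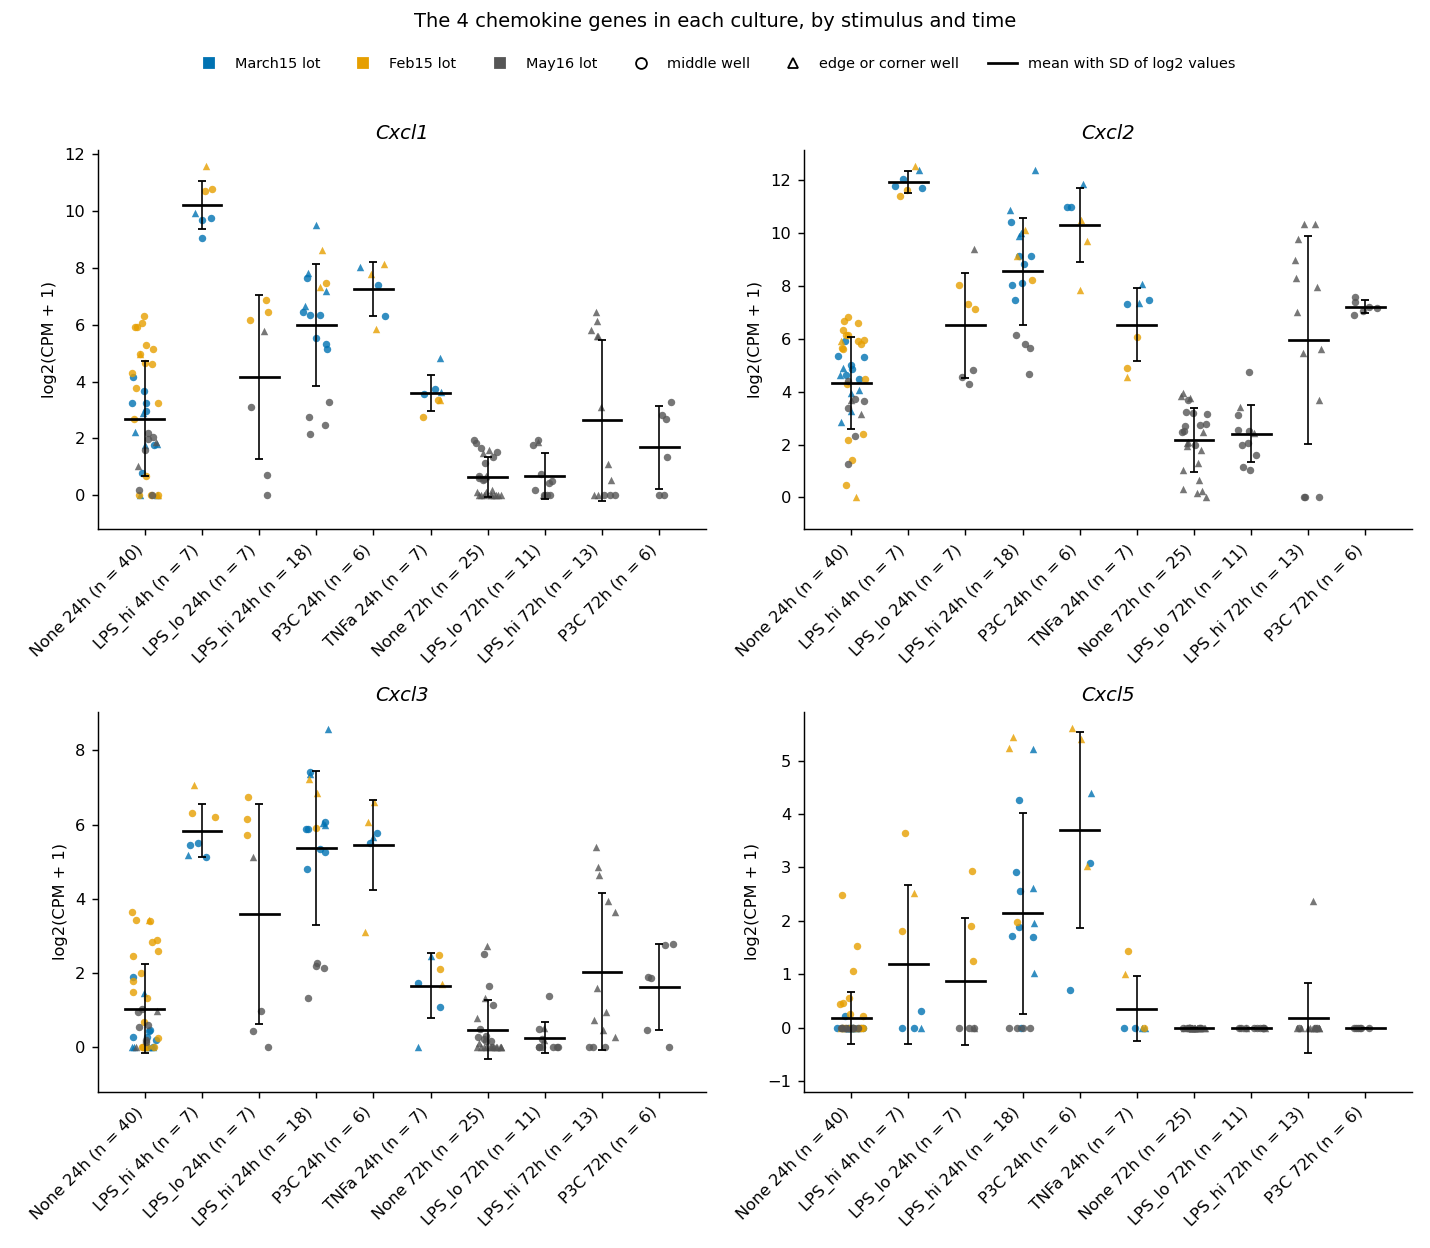
Each point is one culture, with log2(CPM + 1) on the vertical axis, colours for the cell lot, circles for middle wells and triangles for edge or corner wells, and black lines for the mean with the SD of the log2 values. The means of Cxcl1 and Cxcl2 were highest in the 7 LPS_hi wells at 4 h. Single LPS_hi wells at 24 h reached 732 and 5332 CPM, inside the range of the 4 h wells. In the LPS_hi wells at 24 h the May16 lot lay lowest for Cxcl1, Cxcl2 and Cxcl3. For Cxcl5 it lay at 0, as did 1 March15 well.

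The plot of single cultures by stimulus shows that the spread within LPS_hi at 24 h followed the lot. The 4 wells of the May16 lot held Cxcl1 at 3.45 to 8.83 CPM, Cxcl2 at 24.3 to 69.4 CPM, Cxcl3 at 1.52 to 3.81 CPM and Cxcl5 at 0. Wells of the March15 lot (n = 11) held Cxcl2 at 177 to 5332 CPM and those of the Feb15 lot (n = 3) at 294 to 1106 CPM, so the May16 wells did not overlap with the others. Other LPS genes differed in this respect: Tnf, which encodes TNF, averaged 1502 CPM in the May16 wells against 1590 and 1091 CPM in the March15 and Feb15 wells. Il1b, which encodes interleukin 1 beta, averaged 641 against 1208 and 900.0 CPM. Saa3, an acute-phase gene, averaged 11479 against 2832 and 2585 CPM, from untreated means of 229, 24.5 and 71.2 CPM. Measured against the untreated wells of the same lot, LPS_hi raised only Cxcl2 past the threshold in the May16 lot, by 2.37 (SE 0.86, adjusted p = 0.0310 by limma), where 5.76% of all genes were called higher. In the other lots all 4 members were called, with rises of 3.92, 4.78, 5.17 and 2.52, and 6.6% of all genes were. The difference between the lots was called for Cxcl3 at -3.74 (SE 0.64, adjusted p = 4.90e-06) and for Cxcl5 at -2.52 (SE 0.49, adjusted p = 0.000106), with 1.52% of all genes called lower. For Cxcl1 it was -2.61 (adjusted p = 0.142) and for Cxcl2 -2.41 (adjusted p = 0.202), which were not called. The May16 wells of this group were all middle wells of 1 plate, so lot and plate cannot be told apart here. Among middle wells alone, the 8 of the other lots held Cxcl2 at 177 to 1352 CPM and Cxcl3 at 26.96 to 171 CPM, above every May16 well. The contrast between the lots was chosen after the data were seen.

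LPS at the lower dose raised Cxcl2 and Cxcl3 at 24 h (n = 7), where 5.27% of all genes were called higher. Cxcl2 ranged from 18.4 to 675 CPM with a median of 137, a rise of 2.17 (SE 0.63, adjusted p = 0.00383 by limma), and Cxcl3 from 0 to 106 CPM with a median of 33.7, a rise of 2.55 (SE 0.50, adjusted p = 7.11e-06). Cxcl1 at 0 to 117 CPM and Cxcl5 at 0 to 6.60 CPM had changes of 1.46 and 0.69 that were not called. The 3 wells of the Feb15 lot held Cxcl1 at 71.5 to 117 CPM, and 3 of the 4 wells of the May16 lot at 0 to 7.70 CPM. The fourth May16 well, the only edge well of the group, held Cxcl1 at 53.4 and Cxcl2 at 675 CPM, while the 3 middle wells on its plate held Cxcl2 at 18.4, 22.4 and 27.2 CPM. Without the May16 lot all 4 members were called, at 3.47, 2.87, 5.04 and 1.80, and in that lot alone 1 was. The difference between the doses was not called at 24 h for any member, at 1.84 (95% interval 0.40 to 3.29) for Cxcl1, 2.04 (0.70 to 3.39) for Cxcl2, 1.78 (0.71 to 2.85) for Cxcl3 and 1.27 (0.55 to 1.99) for Cxcl5. With a term for the plate it was called for Cxcl1 (2.58), Cxcl2 (2.02) and Cxcl3 (2.18), and with a term for the library pool for Cxcl1 (2.22) and Cxcl3 (1.90), by limma.

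P3C at 24 h raised all 4 members in 6 wells from the March15 and Feb15 lots. Its means of Cxcl1, Cxcl2 and Cxcl5 were the highest of the 45 conditions. Cxcl1 lay between 56.7 and 283 CPM (median 193), Cxcl2 between 229 and 3685 CPM (median 1709) and Cxcl3 between 7.56 and 97.3 CPM (median 51.4). Cxcl5 lay between 0.636 and 47.6 CPM with a median of 13.7, and no P3C well listed it at 0. Cxcl2 did not overlap with the untreated wells, while the lowest P3C wells of the other 3 genes lay inside the untreated range. The rises were 4.55 (SE 0.72), 5.97 (SE 0.67), 4.41 (SE 0.54) and 3.52 (SE 0.36) for Cxcl1, Cxcl2, Cxcl3 and Cxcl5, with adjusted p of 1.63e-08, 2.06e-15, 1.34e-13 and 3.85e-18 by limma, and 3.98% of all genes were called higher. Lot by lot, Cxcl1 averaged 186 CPM with P3C and 244 CPM with LPS_hi in Feb15 wells, and 169 and 160.2 CPM in March15 wells, which lay within each other's spread. No P3C well came from the May16 lot, while the LPS_hi means over all lots include 4 wells of it.

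TNFa at 24 h (n = 7) raised Cxcl2, at 22.6 to 267 CPM with a median of 157, by 2.20 (SE 0.63, adjusted p = 0.0117 by limma), with 2.06% of all genes called higher. Cxcl1 at 5.71 to 27.4 CPM, Cxcl3 at 0 to 4.57 CPM and Cxcl5 at 0 to 1.71 CPM had changes of 0.90, 0.61 and 0.17 that were not called. With a term for the plate, Cxcl1 was called as well, at 1.95 (adjusted p = 0.000818), and Cxcl2 rose by 2.92.

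Across the 38 single stimuli at 24 h, the members were called higher in 11 of 152 pairs of gene and stimulus (7.24%, against 1.58% over all genes) and lower in 9 (5.92%, against 2.83%). Every call upwards fell on LPS_hi, LPS_lo, P3C or TNFa. A lower call needed a fall of at least 1 in mean log2(CPM + 1), for which Cxcl3 and Cxcl5 left little or no room. Untreated wells at 24 h averaged 1.19 in middle and 0.59 in edge wells for Cxcl3, and 0.24 and 0 for Cxcl5. The lower calls were of Cxcl1 and Cxcl2 only: Cxcl1 changed by -2.09 with IFNg, -2.22 with IL4 and -2.22 with TGFb, and Cxcl2 by -2.42 with IFNg, -2.51 with TGFb, -1.99 with IL13, -1.81 with Valproic Acid, -1.55 with IL4 and -1.43 with IFNb. IFNg wells (n = 9) held Cxcl2 at 0 to 13.6 CPM with a mean of 4.49 ± 4.84 (SD), and TGFb wells (n = 8) at 0 to 8.59 CPM with a mean of 3.47 ± 2.76, against 33.03 ± 30.1 CPM in untreated wells. The untreated wells were themselves uneven between plates: 10 wells on 1 plate of the Feb15 lot held Cxcl2 at a mean of 74.9 CPM, and the means of the other 5 plates ran from 9.74 to 41.9 CPM. The change with Valproic Acid turned to 0.15 without the May16 lot. With a term for the plate, only 3 of the 9 lower calls were kept, Cxcl2 with IFNb (-1.54), IFNg (-1.79) and TGFb (-1.96), and Cxcl1 with IFNg, IL4 and TGFb was at -1.02, -1.17 and -1.14, not called. The growth factor GMCSF (n = 8) had changes of 1.74, 1.48 and 1.29 for Cxcl1, Cxcl2 and Cxcl3 with adjusted p of 0.0677, 0.103 and 0.0672, which were not called.

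**Figure D2:**
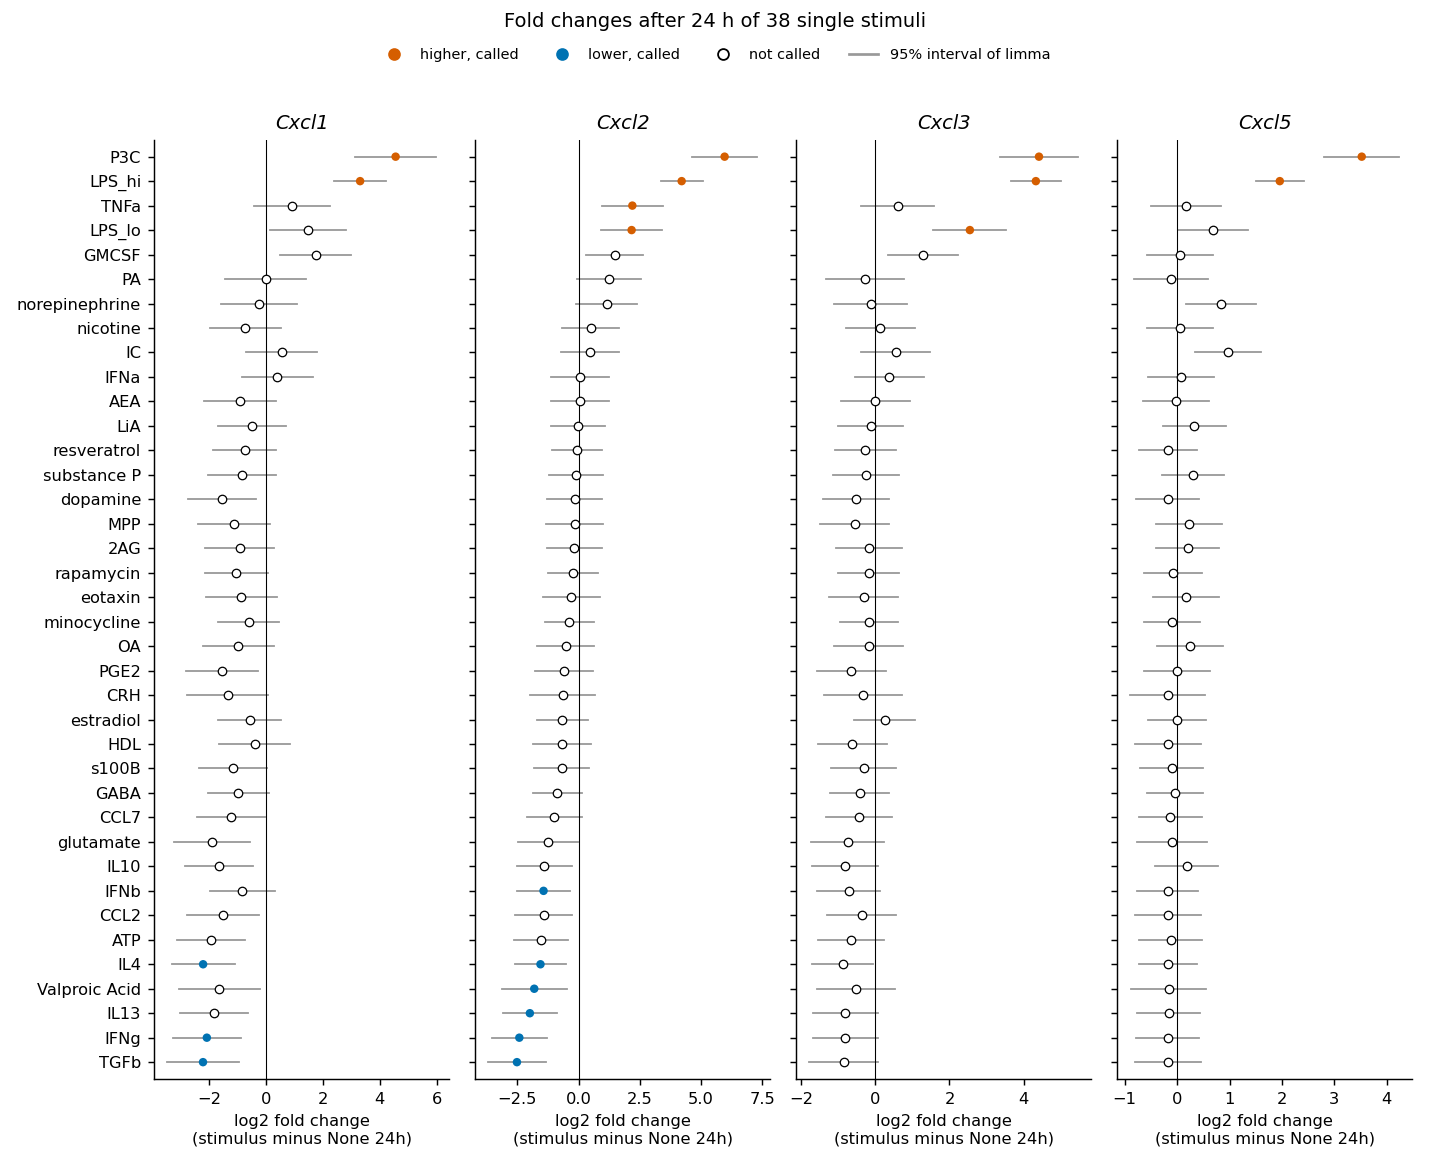
For each of 38 single stimuli, the point gives the log2 fold change against untreated wells at 24 h on the log2(CPM + 1) scale and the line its 95% interval from limma, with filled points for called changes and stimuli ordered by Cxcl2. P3C and LPS_hi stand at the top in all 4 genes, at 5.97 and 4.21 for Cxcl2, and TGFb and IFNg at the bottom for Cxcl2, at -2.51 and -2.42.

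The plot of fold changes over the single stimuli also shows IC, the polyIC of the study's text and a Toll-like receptor ligand, near 0 for Cxcl1, Cxcl2 and Cxcl3 (0.54, 0.47 and 0.55) with wide intervals. A single IC well of 8 held Cxcl1 at 239, Cxcl2 at 833, Cxcl3 at 76.3 and Cxcl5 at 49.6 CPM, and the other 7 reached at most 34.95, 144, 5.16 and 4.14 CPM. In that well the scavenger receptor gene Marco was at 1790 CPM and the interferon-induced gene Ifit3 at 93.9 CPM. The other IC wells had Marco at 45.6 to 271 and Ifit3 at 3530 to 11795 CPM, and P3C wells had Marco at 664 to 4608 and Ifit3 at 16.97 to 111 CPM. The well labelled IC thus stood with the P3C wells by these genes, and it enters the IC values given here under its label. No member was called for IC with it or without it, where the changes were -0.12, -0.23, -0.12 and 0.33.

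At 4 h, LPS_hi (n = 7) held Cxcl1 and Cxcl2 far above every untreated well. Cxcl1 was at 3047, 1754 and 1671 CPM on the Feb15 plate and at 975, 865, 829 and 528 CPM on the March15 plate, and Cxcl2 at 5818, 3088, 2660, 5274, 3474, 4120 and 3288 CPM in the same wells. Cxcl3 was at 132, 78.3, 73.2, 35.5, 44.8, 43.1 and 34.2 CPM. None of these ranges overlapped with the untreated wells, and the Feb15 wells were the highest for Cxcl1 and Cxcl3 but not for Cxcl2. Cxcl5 was at 4.73, 11.5 and 2.50 CPM on the Feb15 plate and at 0, 0, 0 and 0.237 CPM on the March15 plate. Against untreated wells at 24 h the rises were 7.52 (SE 0.58), 7.57 (SE 0.47), 4.80 (SE 0.46) and 1.00 (SE 0.30), with adjusted p of 2.24e-21, 1.88e-27, 2.16e-16 and 0.00395 by limma, and 7.22% of all genes were called higher. No well was left untreated for 4 h, so time and stimulus are not separated in these values, and the same 40 untreated wells served the comparisons at 24 h. Against the wells given the chemokines CCL2 or CCL7 for 4 h, the rises were 5.30, 5.76, 4.24 and 1.06, all called.

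Between 4 and 24 h of LPS_hi the members differed in direction, for Cxcl3 on the March15 plate only, and the differences were uneven between plates. On the 2 plates that held both times, Cxcl1 was higher at 4 h by 1.99 (SE 0.41, adjusted p = 0.000100) and Cxcl2 by 1.62 (SE 0.38, adjusted p = 0.000701), with 4.74% of all genes called higher at 4 h. Cxcl3 was lower at 4 h, by -1.36 (SE 0.48, adjusted p = 0.0382), and so was Cxcl5, by -2.98 (SE 0.58, adjusted p = 3.73e-05), with 9.26% of all genes called lower. This comparison by limma had plate as a term and was added after the data were seen. On the Feb15 plate Cxcl3 had a mean log2(CPM + 1) of 6.53 at 4 h (n = 3) and 6.58 at 24 h (n = 2). On the March15 plate it was 5.33 at 4 h (n = 4) and 8.01 at 24 h (n = 2). Cxcl2 was at 11.83 at 4 h and 9.16 at 24 h on the Feb15 plate. On the March15 plate it was at 11.96 and 11.39, and 1 well at 24 h, at 5332 CPM, exceeded every 4 h well. Cxcl1 was at 11.02 and 8.05 on the Feb15 plate and at 9.61 and 8.57 on the March15 plate. Cxcl5 was at 2.66 and 3.61 on the Feb15 plate and at 0.077 and 4.74 on the March15 plate. The wells at 24 h were an edge and a middle well on each plate, while 2 of the 7 wells at 4 h were edge wells.

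With stimuli other than LPS at 4 h, 5 of 20 pairs of member and stimulus were called higher against untreated wells at 24 h, against 0.833% of all genes. ATP wells (n = 5) held Cxcl1 at 69.2, 72.5, 27.6, 51.4 and 18.5 CPM and Cxcl2 at 204, 205, 90.8, 207 and 81.7 CPM, with rises of 2.74 (SE 0.67, adjusted p = 0.00524) and 2.86 (SE 0.55, adjusted p = 0.000167) by limma. The other calls were Cxcl1 with CCL7 (2.42) and nicotine (1.82) and Cxcl2 with norepinephrine (1.76). No call was kept with a term for the plate, where nicotine left Cxcl1 at -0.03. Adding ATP, nicotine or norepinephrine to LPS_hi at 4 h, or any of 6 agents to LPS at 24 h, gave no call in 36 pairs, against 0.845% of all genes called higher and 0.499% called lower. LPS_hi with ATP held Cxcl3 at 13.7 to 29.1 CPM (n = 6), below the 34.2 to 132 CPM of LPS_hi alone without overlap, and the change of -1.31 (95% interval -2.52 to -0.10) had an adjusted p of 0.321 by limma. LPS_hi with GABA at 24 h had Cxcl5 at -1.22 (adjusted p = 0.0575). With a term for the plate, 3 pairs were called lower, Cxcl1 (-1.84) and Cxcl3 (-1.64) with GABA and Cxcl1 with estradiol (-2.65). With a term for the library pool 2 were called lower, Cxcl1 with estradiol (-2.29) and Cxcl2 with norepinephrine (-1.09). Cxcl3 with ATP had adjusted p of 0.105 and 0.0803 under these terms, by limma.

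At 72 h the untreated wells were low, with Cxcl1 at 0 to 2.80 CPM, Cxcl2 at 0 to 14.5 CPM, Cxcl3 at 0 to 5.62 CPM and Cxcl5 listed at 0 in all 25. Cxcl5 did not pass the filter on low values at 72 h and was not tested there. Among the 72 h cultures, Cxcl1 and Cxcl3 passed it only through stimulated wells. Against the untreated wells at 72 h these genes could only be called higher, and their p-values there add nothing to the values themselves. Compared with untreated wells at 24 h, Cxcl1 was lower by -2.06 (SE 0.40) and Cxcl2 by -2.17 (SE 0.38), where 8.78% of all genes were called lower, and neither was called within the May16 lot. In that lot the effect of LPS_hi differed between 72 and 24 h by 0.69, 1.41 and 0.13 for Cxcl1, Cxcl2 and Cxcl3. That of LPS_lo differed by -1.01, -2.32 and -1.30. None was called, against 0.355% of all genes called higher for LPS_hi and 0.432% called lower for LPS_lo. The May16 LPS_hi wells were all middle wells at 24 h, and 10 of 13 at 72 h were edge wells. Time and well position can therefore not be told apart in the LPS_hi values.

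LPS_hi at 72 h (n = 13) raised the 3 members tested, and its 3 middle wells stood apart from its 10 edge wells. Cxcl2 ranged from 0 to 1287 CPM with a median of 128, Cxcl1 from 0 to 86.7 CPM with a median of 1.12 and Cxcl3 from 0 to 41.5 CPM with a median of 0.936. The rises were 3.78 (SE 0.49), 2.00 (SE 0.39) and 1.57 (SE 0.31), with adjusted p of 1.09e-11, 1.57e-05 and 2.16e-05 by limma, and 3.66% of all genes were called higher. The 3 middle wells, all of 1 library pool, listed every member at 0, and the other 10 were edge wells with Cxcl2 from 11.7 CPM upwards. Between 10 and 17 of the 2584 commonly high genes were also listed at 0 in these 3 wells, and without them and the 4 edge wells with more than 5 such genes at 0, the rises were 4.33, 2.03 and 1.63, all called. LPS_lo at 72 h (n = 11) held Cxcl2 at 1.06 to 25.7 CPM, and its changes of 0.04 for Cxcl1 (95% interval -0.78 to 0.85), 0.25 for Cxcl2 (-0.76 to 1.26) and -0.22 for Cxcl3 (-0.87 to 0.43) were not called, against 4.03% of all genes called higher. LPS_hi lay above LPS_lo at 72 h by 1.96, 3.53 and 1.78, with adjusted p of 0.00509, 3.25e-06 and 0.000652 and 0.321% of all genes called higher over both dose comparisons. Only 2 of the 11 LPS_lo wells were edge wells. None of 10 agents added to LPS_lo for 72 h gave a call in 30 pairs, against 0.423% of all genes called higher and 0.515% called lower. In LPS_lo wells Cxcl1 and Cxcl3 had no room for a fall of 1. Their mean log2(CPM + 1) was 0.62 and 0.23 in middle wells and 0.93 and 0.36 in edge wells.

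In cultures with LPS, Cxcl1, Cxcl2 and Cxcl3 were on average higher in edge than in middle wells. In 23 sets of LPS cultures that shared a stimulus and a plate (27 edge or corner wells and 61 middle wells), edge wells were higher by 1.33 for Cxcl1 (SE 0.27, adjusted p = 0.000237), 2.16 for Cxcl2 (SE 0.29, adjusted p = 4.73e-08) and 1.36 for Cxcl3 (SE 0.22, adjusted p = 4.51e-06) by limma, and 0.509% of all genes were called higher. The edge mean was the higher in 20, 20 and 18 of the 23 sets and the lower in 3, 3 and 5. Cxcl5 had a difference of 0.28 that was not called. Without LPS, the differences were -0.36, -0.64 and 0.09 in untreated wells (33 cultures in 4 sets, 0.171% of all genes called higher) and 0.15, 0.01 and 0.28 with other stimuli (217 cultures in 64 sets, 0.0761%), none called. The difference between cultures with and without LPS was itself called, at 1.23 (adjusted p = 0.00424), 2.21 (adjusted p = 1.49e-09) and 1.10 (adjusted p = 0.000465), with 0.345% of all genes called higher. On 2 plates inner and outer wells had gone into separate library pools, so the sets were also restricted to wells of one pool. In these 19 sets of 68 LPS cultures the differences were 1.41 (SE 0.30, adjusted p = 0.000602), 1.77 (SE 0.27, adjusted p = 1.97e-06) and 1.43 (SE 0.27, adjusted p = 0.000135), with 0.504% of all genes called higher, and against cultures without LPS 1.41, 2.05 and 1.19, all called, with 0.311%. These comparisons were added after the data were seen, and what differs between edge and middle wells was not measured.

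**Figure D3:**
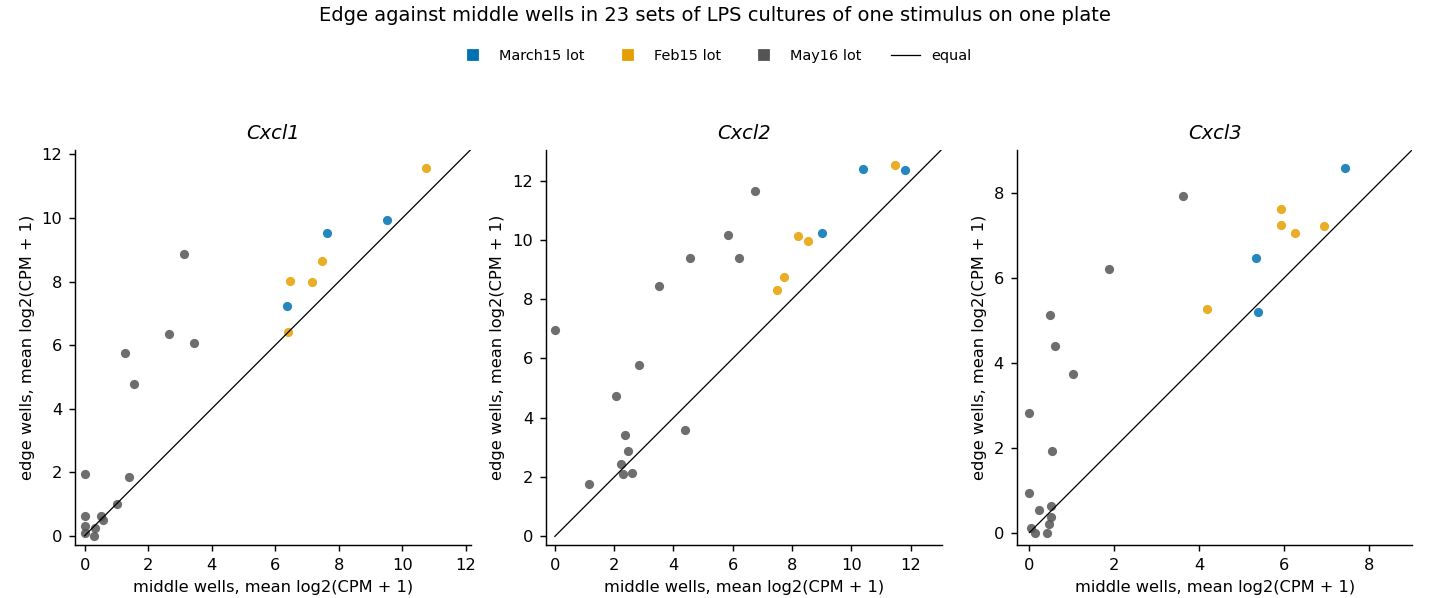
Each point is one set of LPS cultures that shared a stimulus and a plate, with the mean log2(CPM + 1) of its middle wells on the horizontal axis and of its edge or corner wells on the vertical axis, coloured by lot, and the line marks equal values. Of the 23 sets, 20 lie above the line for Cxcl1 and Cxcl2 and 18 for Cxcl3.

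The plot of edge against middle wells includes the LPS_hi well at 24 h with the highest Cxcl2. On the March15 plate that held 2 LPS_hi wells at 24 h, the edge well had Cxcl2 at 5332 CPM and the middle well at 1352 CPM, and on a Feb15 plate the edge well had 1106 CPM and the middle well 294 CPM. With a term for well position, the LPS_hi rises at 24 h were 3.27, 4.19, 4.29 and 1.93, all called.

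P3C at 72 h (n = 6) held Cxcl2 at 117 to 189 CPM (median 143), without overlap with the untreated wells. The rise was 5.04 (SE 0.65, adjusted p = 2.63e-11 by limma), with 4.14% of all genes called higher. P3C wells at 24 h had a median of 1709 CPM but came from other lots, so time and lot cannot be told apart. Cxcl1 at 0 to 8.65 CPM and Cxcl3 at 0 to 5.84 CPM had changes of 1.06 and 1.15 that were not called. TNFa alone (n = 3) held Cxcl2 at 1.52, 2.52 and 5.94 CPM, Cxcl1 at 0, 3.53 and 0 CPM and Cxcl3 at 0 in each, inside the untreated ranges except for the one Cxcl1 value above 0, and PGE2 alone (n = 8) held Cxcl2 at 0.433 to 37.2 CPM. Neither called a member, with changes of -0.18 for TNFa (95% interval -1.89 to 1.52) and 0.88 for PGE2 (-0.25 to 2.01) in Cxcl2.

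The mix of TNFa and PGE2 (n = 8) raised Cxcl1, Cxcl2 and Cxcl3 at 72 h, and its mean of Cxcl2 was the highest of the 44 conditions. Cxcl2 was at 294 to 1148 CPM with a median of 348, Cxcl1 at 0 to 61.1 CPM with a median of 21.6 and Cxcl3 at 6.21 to 453 CPM with a median of 15.9. Cxcl2 and Cxcl3 did not overlap with the untreated wells, and the 2 edge wells of the group were the highest, with Cxcl2 at 783 and 1148 CPM and Cxcl3 at 453 and 159 CPM. The 6 middle wells held Cxcl2 at 294 to 373 CPM and Cxcl3 at 6.21 to 17.6 CPM. Against untreated wells the rises were 3.61 (SE 0.47), 6.59 (SE 0.58) and 4.35 (SE 0.37) for Cxcl1, Cxcl2 and Cxcl3. Against TNFa alone they were 3.52 (SE 0.78, adjusted p = 0.000214), 6.77 (SE 0.96, adjusted p = 2.75e-09) and 4.83 (SE 0.62, adjusted p = 4.00e-11) by limma. The 3 TNFa wells, all on 1 plate, had 29, 51 and 9 of the commonly high genes at 0. The comparison with them could not be made without such cultures, while the rises of the mix over untreated wells without such cultures were 4.09, 6.52 and 4.22.

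The effect of PGE2 on Cxcl2 and Cxcl3 differed between partners, in tests that rest on 3 TNFa wells of 1 plate. On TNFa it exceeded the effect of PGE2 alone by 2.53 for Cxcl1 (SE 0.91, adjusted p = 0.0299), 5.89 for Cxcl2 (SE 1.12, adjusted p = 1.45e-05) and 4.38 for Cxcl3 (SE 0.72, adjusted p = 4.26e-07) by limma, and 10.7% of all genes were called higher in this test. On P3C the effect differed from that of PGE2 alone by 0.81, -0.39 and 2.09, none called (adjusted p = 0.0680 for Cxcl3, 0.291% of all genes called higher). On P3C it raised only Cxcl3 past the threshold, from 0 to 5.84 CPM to 8.02 to 36.1 CPM (n = 7) without overlap, by 2.54 (SE 0.51, adjusted p = 0.000182). Cxcl2 was at 117 to 189 CPM with P3C and at 150 to 283 CPM with P3C and PGE2, a difference of 0.49 (95% interval -1.06 to 2.04). The PGE2 effect was larger on TNFa than on P3C by 6.28 for Cxcl2 (adjusted p = 6.18e-05) and 2.29 for Cxcl3 (adjusted p = 0.0352), with 9.24% of all genes called higher, and on TNFa with P3C it was smaller than on TNFa by -5.64 (adjusted p = 0.000432) and -3.26 (adjusted p = 0.00197), with 5.87% called lower. For Cxcl1 these differences were 1.72 (adjusted p = 0.248) and -1.17 (adjusted p = 0.514), not called. These tests of the difference were added after the data were seen, share the 3 TNFa wells and used wells of the May16 lot only. The groups set against the TNFa wells also had wells on other plates, and the TNFa wells had many commonly high genes at 0. The part of plate and library in these differences was not tested.

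**Figure D4:**
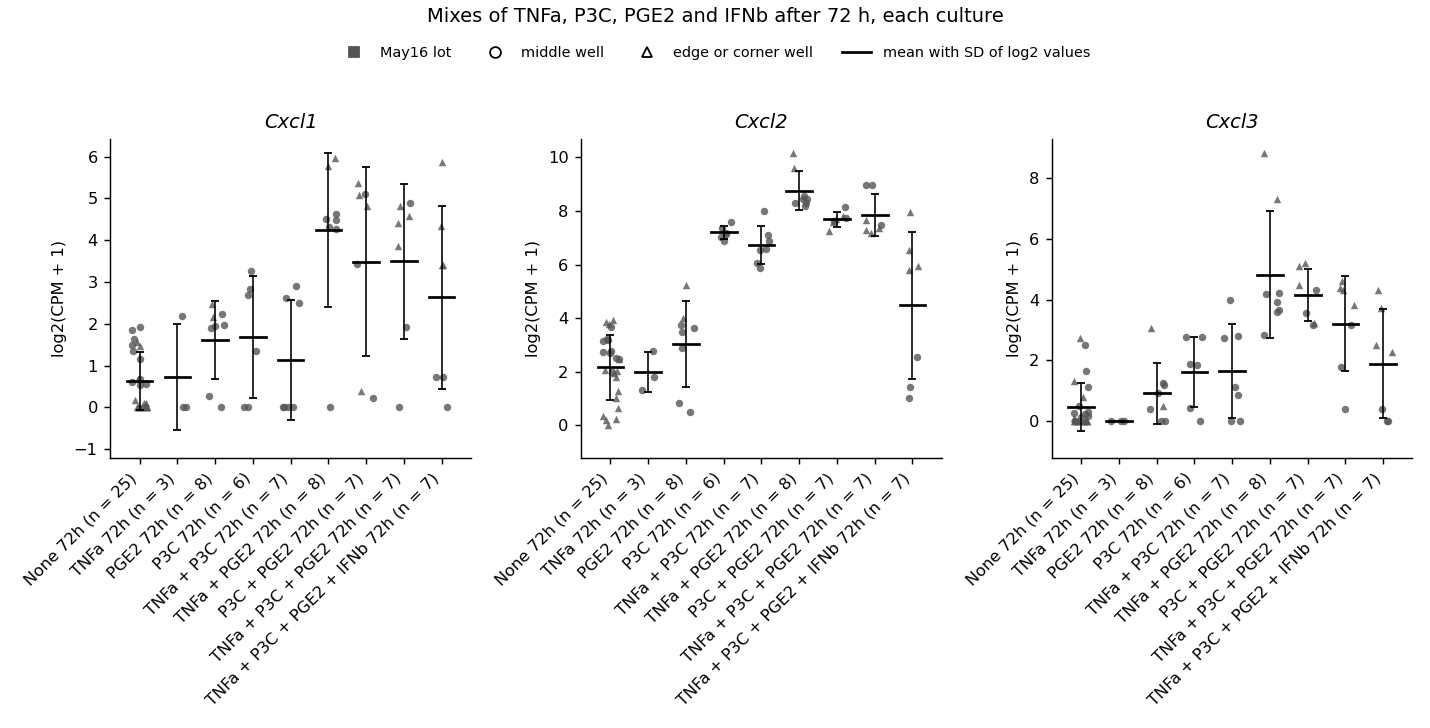
Each point is one culture at 72 h, with log2(CPM + 1) on the vertical axis, circles for middle and triangles for edge or corner wells, and black lines for the mean with the SD of the log2 values. Cxcl2 lies at 294 CPM or more in all 8 wells of TNFa with PGE2, at 5.94 CPM or less in the 3 wells of TNFa alone, and at 117 CPM or more in the 6 wells of P3C.

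The 30 single stimuli and mixes without LPS at 72 h gave 90 pairs. Of these, 15 were called higher (16.7%, against 2.06% over all genes), all with P3C or a mix shown in the plot of mixes. None was called lower (against 2.1%), but Cxcl1 and Cxcl3 left little or no room for a fall of 1. Their mean log2(CPM + 1) in untreated wells at 72 h was 0.27 and 0.33 in edge wells and 1.18 and 0.69 in middle wells. TNFa with P3C (n = 7) held Cxcl2 at 57.1 to 258 CPM, a rise of 4.56, and Cxcl3 at 0 to 14.9 CPM, a rise of 1.17. P3C with PGE2 raised Cxcl1, Cxcl2 and Cxcl3 by 2.85, 5.53 and 3.69, with medians of 26.97, 208 and 19.02 CPM, and TNFa with P3C and PGE2 (n = 7, Cxcl2 at 144 to 501 CPM) by 2.86, 5.69 and 2.74. When IFNb was added to that mix, Cxcl2 fell to 1.04 to 250 CPM (n = 7, median 55.01), by -3.37 (SE 0.76, adjusted p = 0.00139 by limma), and Cxcl1 and Cxcl3 changed by -0.86 and -1.32, not called. In all, 7 of 21 pairs were called higher and 1 lower in the comparisons of a mix with its parts, against 5.17% and 4.39% over all genes. Cxcl3 with P3C added to TNFa was called by a narrow margin (1.64, adjusted p = 0.04999 by limma), and the call was lost when any of the 3 TNFa wells was left out.

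In mice, LPS raised Cxcl1 and Cxcl2 in CD11b-selected brain cells at 4 h. Cxcl1 was at 0.392, 1.88, 0.989 and 1.59 CPM in the PBS mice and at 49.6, 33.3, 34.5 and 38.9 CPM in the LPS mice. Cxcl2 was at 2.94, 1.88, 4.35 and 5.51 CPM with PBS and at 160.0, 178, 159 and 152 CPM with LPS. Every LPS mouse lay above every PBS mouse, with mean folds of 32.2 and 44.2 and rises of 4.22 (SE 0.28, adjusted p = 3.98e-08) and 5.19 (SE 0.23, adjusted p = 5.47e-10) by limma, and 5.29% of the 9012 genes tested were called higher. Cxcl3 was listed at 0 in the 4 PBS mice and was at 0.129, 1.09, 1.30 and 2.78 CPM in the LPS mice, below the filter, and Cxcl5 was listed at 0 in all 32 mice. No PBS mouse held Cxcl1 above the 5 CPM of the filter, and only 1 held Cxcl2 above it, at 5.51 CPM. Both genes passed the filter only through the LPS mice. Cxcl1 could only be called higher, and the p-values of both genes add nothing to the values themselves. Without any one of the LPS mice Cxcl1 dropped below the filter. An exact rank-sum test of 4 against 4 mice cannot go below p = 0.0286, which is 0.114 after Bonferroni correction over the 4 members.

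Markers of other cells moved with the treatment of the mice. The sum of 11 neutrophil markers, 10 of them with a median above 0, was 156 to 242 CPM in PBS mice and 306 to 457 CPM in LPS mice, without overlap, and Ly6g, a defining marker, was at 0.396 to 2.60 and 1.54 to 3.71 CPM. The sum of 8 genes that respond to tissue dissociation, such as Fos and Jun, was 170 to 190 CPM with PBS and 915 to 1276 CPM with LPS. Monocyte markers (5 genes) summed to 20.4 to 47.0 CPM with PBS and 52.1 to 103 CPM with LPS, without overlap. Endothelial sums fell without overlap, from 60.3 to 76.8 CPM to 56.4 to 59.3 CPM, and fibroblast sums from 17.8 to 28.5 CPM to 13.6 to 16.7 CPM. The sums for perivascular macrophages, T cells, B cells, astrocytes, oligodendrocytes and neurons overlapped. The sum of 10 microglial markers overlapped, at 44895 to 56186 and 47332 to 52978 CPM. In LPS mice 4 of the 10 were lower without overlap. These were Sall1 (232 to 335 against 84.7 to 99.7 CPM), Siglech (685 to 811 against 458 to 538), P2ry12 (630 to 1113 against 387 to 542) and Cx3cr1 (2717 to 3612 against 1721 to 2643). The part of these shifts in the chemokine values was not tested. In the cultures, Ly6g was at 0 in 14 of the 18 LPS_hi wells at 24 h and reached 55.8 CPM in 1 of them, S100a9, Ltf, Ngp and Elane were at 0 in all 18, and the neutrophil marker sum was 15.8 to 73.5 CPM against 5.38 to 38.3 CPM in untreated wells. The sum of 5 monocyte markers was 122 to 408 CPM with LPS_hi and 2.19 to 45.9 CPM without. Only 2 of these 5 had a median above 0 with LPS_hi, and 3 without. The sum of 10 microglial markers was 875 to 2751 CPM with LPS_hi and 4155 to 10127 CPM without. Neither sum overlapped between the groups, and their part in the chemokine values was not tested.

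Naive mice held little of any member at either age. Cxcl2 was at 0 to 4.04 CPM at 22 months (mean 1.09 ± 1.22, SD, n = 13) and at 0 to 1.78 CPM at 2 months (mean 0.279 ± 0.567, SD, n = 11), and Cxcl1 averaged 0.0727 and 0.109 CPM. The ranges overlapped, no member passed the filter and none was tested, while 1.25% of all genes were called higher at 22 months. The neutrophil marker sum was 487 to 4882 CPM at 22 months and 254 to 1495 CPM at 2 months, and its part in these values was not tested.

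**Figure D5:**
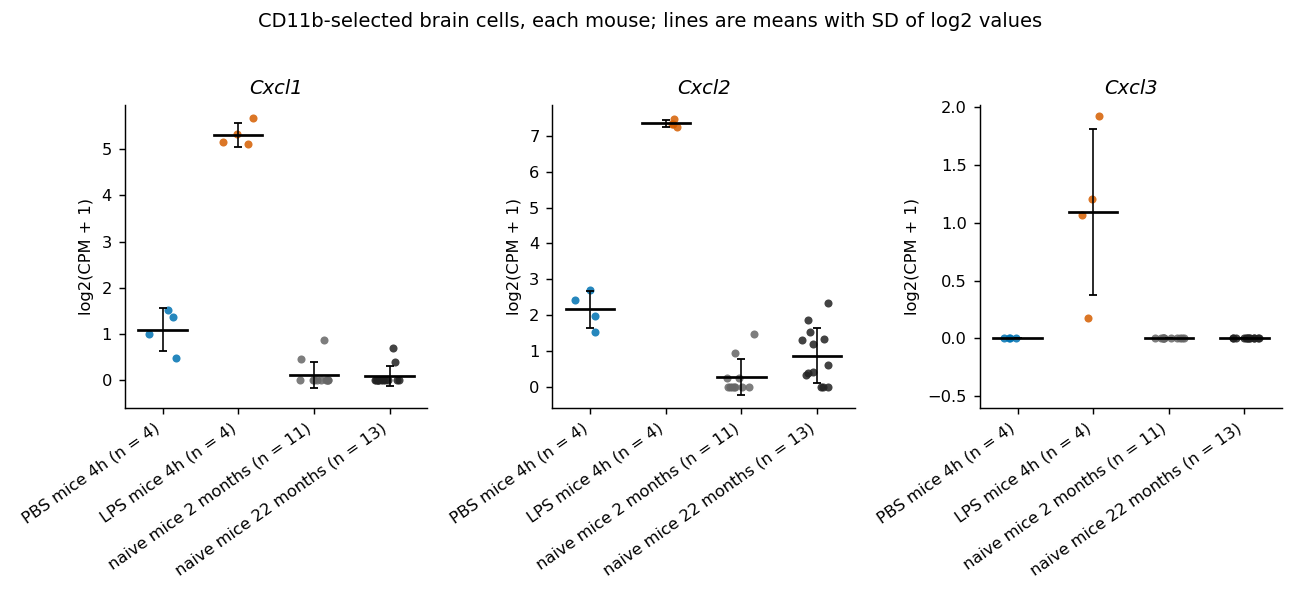
Each point is one mouse, with log2(CPM + 1) on the vertical axis, and black lines mark the mean with the SD of the log2 values. The 4 LPS mice lie at 33.3 to 49.6 CPM for Cxcl1 and 152 to 178 CPM for Cxcl2, above all other mice, and at 2.78 CPM or less for Cxcl3.

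The plot of single mice shows the LPS and PBS groups of females apart from the naive males, which differ from them in sex and treatment, so no comparison was drawn across these experiments.

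The chemokines were followed with 5 lists of related genes, read against 6.17% of all genes called higher and 12.8% called lower at 24 h of LPS_hi. Of the other CXC ligands, 9 of 11 passed the filter at 24 h of LPS_hi, 5 were called higher and 1 lower, with Cxcl10 (5.75), Cxcl11 (5.02) and Cxcl9 (4.54), the ligands of Cxcr3, at the top and Cxcl14 at -2.48. Of the chemokine receptors and decoys, 4 of 10 passed, none was called higher and 3 were lower, Cxcr4 (-3.99), Cxcr3 (-2.12) and Cxcr5 (-1.56), while Cxcr2, the receptor for the members, passed and was not called. The genes for neutrophil growth and co-recruiting factors passed in 8 of 10 cases and all 8 were called higher, with Il1b (6.36), Il1a (6.35), Il6 (4.92) and Ptgs2 (4.73), the last of which makes the precursor of PGE2. Upstream receptors and adaptors passed in 11 of 12 cases and 5 were higher, among them Irak3 (3.92), Tnfrsf1b (2.80), Cd14 (2.75) and Myd88 (1.70). Regulators of NF-kB and mRNA decay were higher in 10 and lower in 1 of 14, among them Nfkbiz (3.80), Nfkbia (3.25), Zc3h12a (2.85) and Tnfaip3 (2.65), with Zfp36l1 (-2.12) as the one that was lower. The list medians were 1.505, -1.84, 4.28, 0.51 and 1.49 against -0.21 over all genes.

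In LPS mice the same lists gave 4 of 6 ligands higher, with Cxcl10 (5.08), Cxcl11 (3.21), Cxcl9 (3.07) and Cxcl16 (1.80), and 0 of 3 receptors in either direction. Of 10 growth and co-recruiting genes 7 passed and all 7 were higher, with Il1b (5.15), Ptgs2 (5.02), Tnf (4.94) and Ccl4 (4.34). Of the upstream receptors and adaptors 5 of 10 were higher, with Cd14 (2.65) and Tlr2 (2.51), and of the NF-kB and decay regulators 12 of 14, with Dusp1 (5.32), Nfkbiz (4.17), Bcl3 (4.01) and Zfp36 (3.61), against 5.29% of all genes. The list medians were 2.43, -0.05, 4.34, 0.99 and 2.77 against -0.19 over all genes.

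Over the condition means, Cxcl1, Cxcl2 and Cxcl3 followed each other closely and Cxcl5 less so. Across 97 conditions with at least 2 cultures, Pearson's r on the log2 scale was 0.936 between Cxcl1 and Cxcl2, 0.904 between Cxcl1 and Cxcl3 and 0.910 between Cxcl2 and Cxcl3. For Cxcl5 it was 0.704 with Cxcl1, 0.680 with Cxcl2 and 0.803 with Cxcl3. Conditions on one plate share library pools and cell lots, and the LPS conditions carry much of the range, so these values are descriptions. With the members themselves left out, the genes most like each member among 16942 were Rab11fip1 (0.882), Dusp2 (0.876) and Il1a (0.869) for Cxcl1, Met (0.875), Rab11fip1 (0.873) and Cd14 (0.868) for Cxcl2, Il1b (0.926), Adora2a (0.893) and Il1a (0.891) for Cxcl3, and Chil1 (0.876), Ms4a4d (0.819) and Il6 (0.772) for Cxcl5. Rab11fip1 was among the 5 nearest of Cxcl1, Cxcl2 and Cxcl3, and of the genes nearest to Cxcl5 only Il6 was also among the 5 nearest of Cxcl3.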

How the data were processed

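Microglial 3′-end RNA-seq libraries from 784 cultures and 32 mice were analysed. The authors mapped reads to mouse transcripts with Salmon 0.7.1, summed them per gene and scaled them to the mapped reads of each library. The deposited values are thus CPM (counts-per-million), a unit the study's text calls TPM. The submitters' processing notes list the build mm8. The authors removed shallow cultures before deposit. Whole reads could not be recovered, so no count test was run.

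Groups came from the sample labels. Genes above 5 CPM in at least 4 samples (11 in the aging mice) were fitted on log2(CPM + 1) with limma 3.58.1 (trend) in R 4.3.3, with 1 fit per time. Adjustment was by Benjamini-Hochberg over all genes, and calls needed an adjusted p under 0.05 and a log2 fold change of at least 1. SEs are from limma, 95% intervals are normal intervals from them, and fold changes on this scale understate changes of low genes. The fit was tested on simulated data. Comparisons at 4 and 24 h share untreated wells, as do those at 72 h, so calls are not independent. The members and gene lists were chosen with earlier results of these data known, by the rule that all 4 members were described in every condition and that at most 4 called genes were named per list, except Zfp36l1, which was chosen after its value was seen. Likeness was Pearson's r of condition means over conditions with at least 2 cultures. Promoters are from RefSeq, where 3 of the 4 members matched. Edge, lot and interaction comparisons were added after the data were seen. Alternatives were another pseudocount (0.1 or 5), no filter, upper-quartile rescaling, terms for plate, library pool and well position, an exact two-sided rank-sum test with Bonferroni correction, adjustment over whole families, and leaving out cultures. Depth limits low values, and a 0 does not show absence.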

Additional observations from a re-analysis of the deposited data

Results flagged for a closer look

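In 12 of 49 sets of a member in a group of 4 to 10 samples, 1 sample lay apart from the rest by Dixon's criterion. Its rate of about 1 in 20 by chance holds for normal values. The criterion was applied to CPM, which are skewed upwards, so that rate does not hold here. All 12 flags were of a highest value. A single IC well at 24 h was the source of 4 of these, with Cxcl1 at 239, Cxcl2 at 833, Cxcl3 at 76.3 and Cxcl5 at 49.6 CPM, each the highest of 8 wells. At 24 h of LPS_lo, 1 edge well held Cxcl2 at 675 CPM and another well held Cxcl5 at 6.60 CPM, and at 4 h of LPS_hi 1 well held Cxcl5 at 11.5 CPM. At 72 h, TNFa with P3C had 1 well with Cxcl2 at 258 CPM and 1 with Cxcl3 at 14.9 CPM, the 4-part mix with IFNb had 1 with Cxcl1 at 57.8 CPM and 1 with Cxcl2 at 250 CPM, and TNFa with PGE2 had an edge well with Cxcl3 at 453 CPM.

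Effects that differed between groups by a test of the difference itself concerned well position, lot and PGE2. The edge-to-middle difference was larger with LPS than without by 1.23 for Cxcl1, 2.21 for Cxcl2 and 1.10 for Cxcl3, and by 1.41, 2.05 and 1.19 among wells of one library pool. The LPS_hi effect at 24 h was smaller in the May16 lot by -3.74 for Cxcl3 and -2.52 for Cxcl5. At 72 h the effect of PGE2 on TNFa exceeded that of PGE2 alone by 2.53, 5.89 and 4.38 for Cxcl1, Cxcl2 and Cxcl3 and exceeded that on P3C by 6.28 for Cxcl2 and 2.29 for Cxcl3. On TNFa with P3C it was below that on TNFa by -5.64 for Cxcl2 and -3.26 for Cxcl3. The PGE2 differences share 3 TNFa wells of 1 plate. What stands behind all these differences was not tested.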

How the results depend on the processing

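Of 625 values of called members recomputed under an alternative, 548 kept direction and call, 73 lost the call and 4 turned: Cxcl2 with Valproic Acid (0.15 without the May16 lot), Cxcl1 with nicotine at 4 h (-0.030 with a plate term, -0.15 with plate and well terms) and Cxcl2 with norepinephrine at 4 h (-0.027 with a pool term). Terms for plate or well and subsets by lot or by genes at 0 were chosen after seeing the data, except the planned plate and pool terms.

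Counts of member calls moved as follows. For LPS_hi at 24 h, 4 became 1 in the May16 lot alone. For LPS_lo at 24 h, 2 became 4 without that lot, 1 in it alone and 0 by rank-sum. For TNFa at 24 h, 1 became 2 with plate, pool, or plate and well terms. For P3C at 72 h, 1 became 2 with pseudocount 0.1, with pool, well, or plate and well terms, and without cultures with many genes at 0. The 20 calls of the 24 h screen became 10 and the 15 of the 72 h screen 9 by rank-sum. For LPS_hi at 72 h, 3 became 1 by rank-sum. The 5 other calls at 4 h became 3 with pseudocount 5, 0 with plate or plate and well terms, 1 with a pool term, 2 without cultures with many genes at 0, 3 by rank-sum and 8 with adjustment over the family. Calls of agents added to LPS at 4 or 24 h rose from 0 to 1 with pseudocount 5, no filter, without cultures with many genes at 0, by rank-sum and over the family, to 3 with a plate term and to 2 with pool or plate and well terms. The 8 calls between mixes became 5 without cultures with many genes at 0, where 4 of 7 comparisons could be fitted, and 1 by rank-sum. Untreated wells at 72 against 24 h went from 2 calls to 0 in the May16 lot alone. The 3 dose calls became 6 with plate or plate and well terms, 5 with a pool term and 0 by rank-sum. The 2 calls in LPS mice became 0 by rank-sum and 1 to 2 leaving out 1 mouse each, since Cxcl1 drops below the filter without any LPS mouse. Leaving out 1 culture gave 7 for the mixes, 5 for the other calls at 4 h, 15 for the 72 h screen and 0 for agents added to LPS_lo at 72 h. The causes were not tested beyond this.

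With pseudocount 5, Cxcl5 rose by 0.95 with LPS_hi at 24 h and 0.42 at 4 h, under the fold required. No paired analysis was possible because replicate numbers follow accession order only. Library batch gave no value for the aging mice, and plate or pool terms could not be fitted for untreated wells at 72 against 24 h.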

Other observations

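Cxcl5 was seen in few wells at 72 h. The one well labelled LPS_hi at the LPS_lo dose held Cxcl5 at 9.38 CPM and Cxcl2 at 118 CPM, 1 well of the mix of TNFa, P3C, PGE2 and IFNb held Cxcl5 at 39.1 CPM, and 1 of 13 LPS_hi wells held it at 4.19 CPM. At 4 h its highest mean, 5.34 ± 4.87 CPM (SD, n = 8), was in wells given LPS_hi with norepinephrine, where Cxcl2 averaged 2132 CPM, and neither differed from LPS_hi alone past the threshold.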
